A study of Mus musculus with 3 samples.

Results

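The genes described here are 9 genes through which macrophages recognize and take up dying cells, out of 24453 gene symbols measured. The rule that picks them uses their names and none of their values, though it was written with earlier results of these data known. Each gene is represented by its longest coding RefSeq transcript. RNA was sequenced from macrophages of the heart, macrophages of the kidney and Kupffer cells, which are the macrophages resident in liver sinusoids. All came from C57BL/6 mice aged 8 weeks in the steady state, with no treatment named. The cells were sorted as positive for CD11b and F4/80 and negative for Ly6G and Ly6C. Each tissue has 1 library, and the labels give neither the number nor the sex of the animals behind it. The spread between animals is therefore unknown, no difference between tissues was tested, and what follows describes these 3 libraries.

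Cells that die by apoptosis expose phosphatidylserine, a lipid otherwise kept on the inner side of the plasma membrane. Some phagocyte receptors, such as TIM-4 (encoded by Timd4), bind this lipid directly. The TAM receptor tyrosine kinases Tyro3, Axl and Mertk instead bind it through bridging proteins, Gas6 and protein S (encoded by Pros1), which are vitamin K-dependent. MFG-E8 (encoded by Mfge8) is another bridge and links the lipid to αv integrins. Elmo1 and Dock1 form an exchange factor that activates the GTPase Rac, which drives the actin movement of engulfment.

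The deposited values are RPKM, in which the reads on a transcript are divided by its exon length in kilobases and by the library's total of counted reads, set to 1000000. Depth was recovered from the steps between low values, as 14460633 reads in the heart, 15550836 in the kidney and 16743411 in the Kupffer cell library, over all transcripts. Numbers in brackets after a value bound its exact 95% interval, which is computed from the reads and holds counting error alone, as amplified copies of a molecule could not be recognized. A difference is taken between values of log2(RPKM + 1), and a gene is called apart where it reaches 2 log2 units, or 4-fold of RPKM + 1. Folds are ratios of RPKM with no pseudocount. Where a library had 0 reads, the fold was bounded by putting 3 reads in their place. Of the 9 genes, 8 reached 1 RPKM in some library and were compared together with all 11482 genes that passed this filter.

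All 10 macrophage markers, such as Adgre1 and Csf1r, exceeded 1 RPKM in each library and summed to 2775 RPKM in the heart, 2651 in the kidney and 3050 in the Kupffer cell library. The 10 Kupffer cell markers summed to 51.8, 12.9 and 2845 RPKM in the same order, so the label of the liver cells fits its markers. Markers of other cells were present as well, in different libraries for different cells. Distal nephron markers summed to 0.063, 502 and 3.25 RPKM, with 9, 1 and 8 of the 10 genes at 0 reads. Fibroblast and mural cell markers summed to 160 RPKM in the heart, 125 of it from Dcn, against 5.07 in the kidney and 19.4 in the Kupffer cell library, with 0, 5 and 5 of 10 genes at 0 reads. The hepatocyte sum was highest in the Kupffer cell library, and so was the endothelial sum, which rests there mainly on a gene that is also a Kupffer cell marker. Endothelial markers summed to 12.2, 15.6 and 92.9 RPKM, 52.9 of the last from Cdh5, with 0, 2 and 1 of 10 genes at 0 reads. Without the most abundant gene of each library they summed to 6.91, 7.66 and 39.97 RPKM, still highest in the Kupffer cell library. Hepatocyte markers other than Trf, which was between 382 and 388 RPKM in each library, summed to 1.42, 2.39 and 207 RPKM, with 6, 6 and 0 of the 10 genes at 0 reads. Dendritic cell markers summed to 298 RPKM in the heart, 270.1 of it from Cd209a, against 30.6 in the kidney and 13.9 in the Kupffer cell library, with 1, 1 and 4 of 8 genes at 0 reads. Cd209a, Siglech and Zbtb46 of this list were highest in the heart library. Clec9a, at 0.126, 7.24 and 1.29 RPKM, and Xcr1, at 1.07, 3.11 and 1.62 RPKM, were lowest there. Proximal tubule markers summed to 4.48, 35.8 and 18.5 RPKM, with 7, 3 and 7 of 10 genes at 0 reads. Monocyte markers summed to 268, 238 and 406 RPKM, with 0, 3 and 1 of 7 genes at 0 reads. The most abundant was Plac8 in the heart (129 RPKM) and Kupffer cell library (337 RPKM) and Ccr2 in the kidney (226.5 RPKM). B and plasma cell markers summed to 35.9, 168 and 311 RPKM, with 3, 5 and 1 of 7 genes at 0 reads. Cd79b was the highest of them in each library, and without it they summed to 3.08, 0.049 and 140 RPKM. T and NK cell markers summed to 12.8, 16.6 and 67.9 RPKM, with 4, 7 and 2 of 9 genes at 0 reads. Of the kidney sum, 15.5 RPKM came from Cd4. In bulk RNA, fewer cells of a type and less RNA per cell cannot be told apart.

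**Figure D1:**
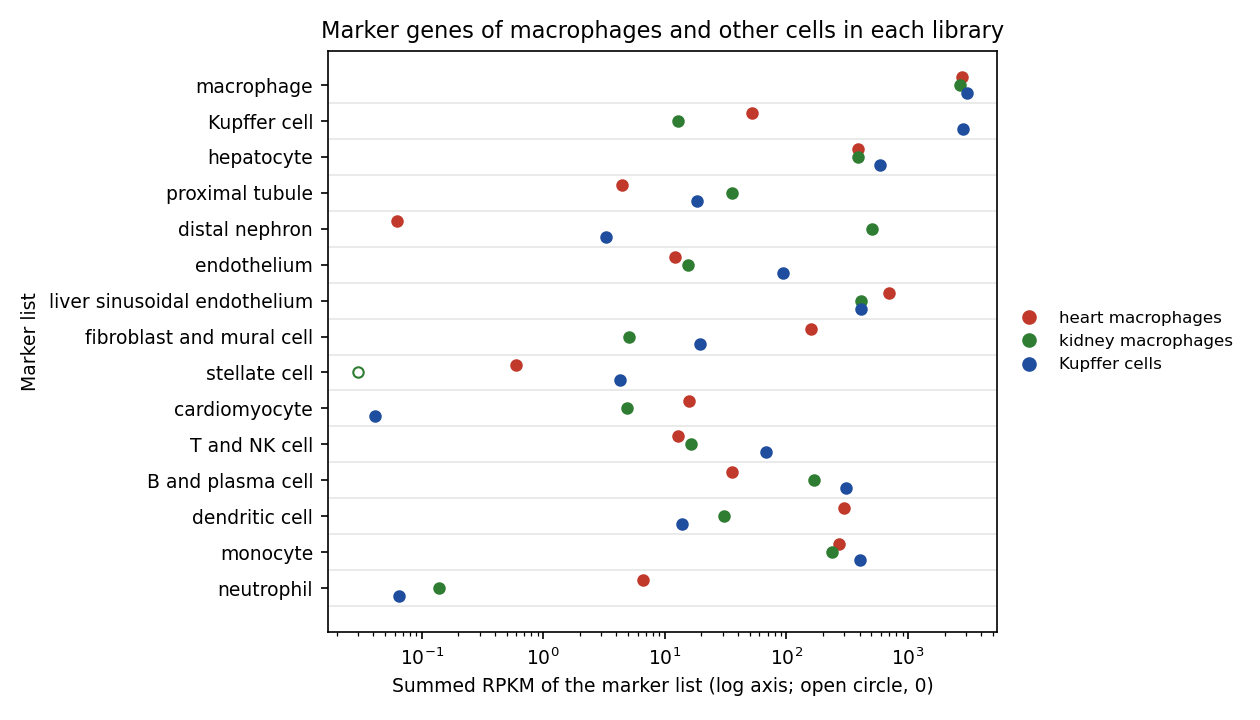
Summed RPKM (log axis) of each marker list in the heart macrophage, kidney macrophage and Kupffer cell libraries, 1 point for each library. Macrophage markers lie within 2651 to 3050 RPKM in all 3 libraries, while distal nephron markers reach 502 RPKM only in the kidney library.

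Promoters of 4 genes are shown first, those of Timd4, the receptor gene that differed most between the libraries, and of the bridge genes Mfge8, Pros1 and Gas6, which were all lowest in Kupffer cells. Each is the 250 bases before the RefSeq start of transcription on build GRCm38.p6, 5′ to 3′ on the strand of the gene. Capitals mark every match, on either strand, to 1 of 8 motifs.
Timd4, chr11:46810549-46810798, plus strand: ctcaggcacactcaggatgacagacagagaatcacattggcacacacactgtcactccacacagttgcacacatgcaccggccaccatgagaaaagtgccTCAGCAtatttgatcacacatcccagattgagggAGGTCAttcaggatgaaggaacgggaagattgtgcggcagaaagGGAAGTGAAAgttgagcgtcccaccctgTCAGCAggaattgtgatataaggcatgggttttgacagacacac
Mfge8, chr7:79149061-79149310, minus strand: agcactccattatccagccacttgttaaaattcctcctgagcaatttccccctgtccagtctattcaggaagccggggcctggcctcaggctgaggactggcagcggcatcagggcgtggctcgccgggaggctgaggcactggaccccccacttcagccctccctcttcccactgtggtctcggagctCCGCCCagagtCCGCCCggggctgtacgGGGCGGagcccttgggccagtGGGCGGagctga
Pros1, chr16:62854057-62854306, plus strand: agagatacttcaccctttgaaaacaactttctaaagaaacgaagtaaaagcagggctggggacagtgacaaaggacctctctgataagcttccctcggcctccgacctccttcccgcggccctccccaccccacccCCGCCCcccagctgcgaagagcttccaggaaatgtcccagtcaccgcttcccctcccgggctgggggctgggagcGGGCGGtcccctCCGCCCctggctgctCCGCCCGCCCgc
Gas6, chr8:13494536-13494785, minus strand: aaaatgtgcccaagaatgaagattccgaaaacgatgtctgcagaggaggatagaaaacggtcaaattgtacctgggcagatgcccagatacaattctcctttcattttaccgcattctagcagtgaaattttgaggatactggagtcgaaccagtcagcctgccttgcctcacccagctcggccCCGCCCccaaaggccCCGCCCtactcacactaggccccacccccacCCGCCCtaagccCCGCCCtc
The matches in Mfge8, Pros1 and Gas6 are all GC boxes, GGGCGG, the motif of SP1 and related factors. Of the 10 starts of the 9 genes in the RefSeq table, 8 held a GC box, against 32.7% of all 32851 promoter windows of the same length. The 2 starts without one were that of Timd4 and the downstream start of Elmo1. For 2 genes the window is not that of the transcript counted here. The Mertk window ends at 128698914, and its counted transcript begins at 128698997. The Tyro3 window ends at 119799513, before a shorter transcript, and its counted transcript begins at 119797740. Timd4 was the only start with a match to the composite element of PU.1 and interferon regulatory factors (GGAA, any 2 bases, GAAA), which 2.30% of all windows held, 72 bases before its start. It also held the MAF half-site TGCTGA at 150 and 44 bases before its start, a motif in 16.1% of windows, and the nuclear receptor half-site AGGTCA at 116 bases, in 14.0% of windows. The interferon response core (GAAA, any 2 bases, GAAA), which can overlap the composite element, the ETS motif GAGGAAGT and the AP-1 motif TGANTCA matched none of the 10 starts. The TATA box TATAAA matched 1 start, the upstream one of Elmo1. The motifs were picked with these sequences in view, and a match is a description of the letters and shows no binding. The GC content of the Timd4 window was 50.0%, against 65.2%, 64.4% and 54.8% in Mfge8, Pros1 and Gas6 and a mean of 53.2% over all windows.

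Timd4 was the receptor that differed most between the libraries. It encodes TIM-4, which tethers apoptotic cells through phosphatidylserine, and lies on mm10 chromosome 11, 46810799 to 46844333. It stood at 148 RPKM in heart macrophages (143 to 152, 4620 reads), 0 in kidney macrophages (0 reads) and 339.6 in Kupffer cells (334 to 346, 12306 reads). The kidney library had none of these reads although its macrophage markers were near those of the others. Timd4 was at least 1656-fold higher in heart than in kidney macrophages, a difference of 7.22 log2 units, and at least 3810-fold lower in kidney macrophages than in Kupffer cells, a difference of -8.41. Only 0.0523% and 0.0435% of all genes differed more in these comparisons. In heart macrophages it was 2.30-fold lower than in Kupffer cells (2.22 to 2.38), a difference of -1.20, which was not called. It ranked 479 in the heart and 69 in the Kupffer cell library among the 11482 genes. The Kupffer cell value rests on 5.69 reads per base of exon, where 99% of transcripts of at least 500 bases had at most 4.06. The file header gives a limit on tags counted at a position, and the effect of this limit on Timd4 was not tested.

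Of the TAM receptors, Axl and Mertk were read in all 3 libraries and Tyro3 in none. Tyro3 had 0 reads in each, where 3 reads would correspond to 0.0468, 0.0435 and 0.0404 RPKM in the heart, kidney and Kupffer cell library, so a lower level was not detectable at this depth. Axl, which binds Gas6 and lies on chromosome 7, 25756500 to 25788733, stood at 32.2 RPKM in heart macrophages (30.9 to 33.5), 91.8 in kidney macrophages (89.7 to 94.0) and 103 in Kupffer cells (101 to 105). The heart library was thus the low one, 2.85-fold lower than the kidney (2.72 to 2.99) and 3.20-fold lower than the Kupffer cell library (3.06 to 3.35). The kidney value was 1.12-fold below that of Kupffer cells (1.09 to 1.16). None of the 3 differences, -1.48, -1.65 and -0.16 log2 units, reached the threshold.

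Mertk, which binds both Gas6 and protein S and serves the clearance of apoptotic cells by macrophages, lies on chromosome 2, 128698997 to 128802188. It stood at 20.2 RPKM in heart macrophages (19.0 to 21.5), 8.68 in kidney macrophages (7.92 to 9.49) and 33.1 in Kupffer cells (31.7 to 34.6). Kidney macrophages were lowest, 3.82-fold below Kupffer cells (3.45 to 4.23). Heart macrophages were 2.33-fold above kidney macrophages (2.09 to 2.60) and 1.64-fold below Kupffer cells (1.52 to 1.77). The differences were 1.13 log2 units for heart minus kidney, -0.69 for heart minus Kupffer and -1.82 for kidney minus Kupffer, all under the threshold.

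Axl and Mertk did not keep 1 proportion. The ratio of Axl to Mertk in RPKM, which does not depend on the scaling of a library, was 1.59 in heart macrophages (1.48 to 1.72), 10.6 in kidney macrophages (9.64 to 11.6) and 3.11 in Kupffer cells (2.96 to 3.27). The 3 counting intervals do not overlap. Timd4 exceeded Mertk 7.31-fold in heart macrophages (6.83 to 7.83) and 10.3-fold in Kupffer cells (9.78 to 10.8). The most abundant receptor of the 4 was therefore Timd4 in the heart and Kupffer cell libraries and Axl in the kidney library.

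**Figure D2:**
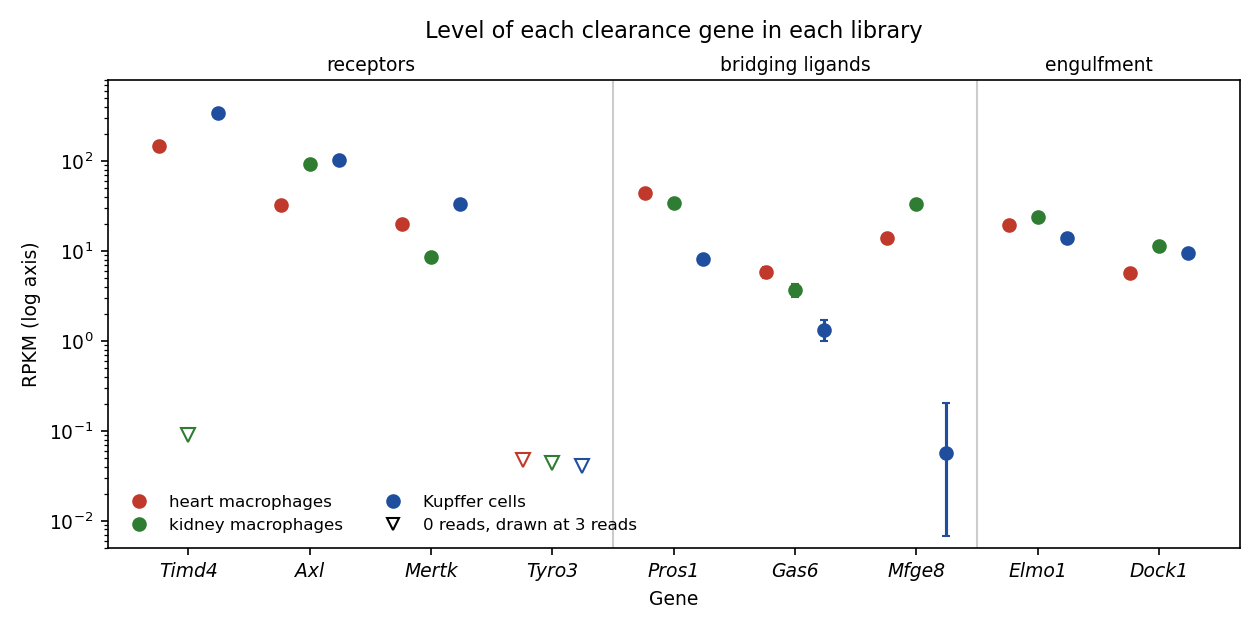
RPKM (log axis) of the 9 genes in the heart macrophage, kidney macrophage and Kupffer cell libraries, 1 library for each tissue, with exact 95% counting intervals. Open triangles stand at the level of 3 reads for genes with 0 reads. Timd4 is at 148 and 339.6 RPKM in the heart and Kupffer cell libraries with 0 reads in the kidney library, and Mfge8 has 2 reads in the Kupffer cell library.

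The 3 bridging ligands were all lowest in Kupffer cells. Mfge8, which carries an integrin-binding motif beside its lipid-binding domains, lies on chromosome 7, 79133768 to 79149060. It stood at 14.1 RPKM in heart macrophages (12.8 to 15.5, 431 reads), 33.7 in kidney macrophages (31.7 to 35.7, 1107 reads) and 0.057 in Kupffer cells (0.00684 to 0.204, 2 reads). With only 2 reads in Kupffer cells the folds are wide: heart macrophages were 249.5-fold higher than Kupffer cells (68.7 to 2067) and kidney macrophages 596-fold (165 to 4927). These differences, 3.84 and 5.04 log2 units, were both called. They depend on the pseudocount. The heart minus Kupffer difference was 6.499 with 0.1 and 1.92 with 5, where it was not called, and the kidney minus Kupffer difference was 7.75 with 0.1 and 2.94 with 5. Between heart and kidney macrophages the difference was -1.20, with the heart 2.39-fold lower (2.13 to 2.68). Distal nephron and proximal tubule markers were also highest in the kidney library. The part of nephron RNA in the kidney value was not tested.

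Pros1 encodes protein S, a plasma protein that acts both in anticoagulation and as a ligand of Mertk and Tyro3, and lies on chromosome 16, 62854307 to 62929342. It stood at 43.7 RPKM in heart macrophages (41.8 to 45.6), 33.9 in kidney macrophages (32.3 to 35.5) and 8.12 in Kupffer cells (7.38 to 8.91). It was 5.38-fold higher in heart macrophages than in Kupffer cells (4.86 to 5.97), a difference of 2.29 that was called, but not with a pseudocount of 5 (1.89). Kidney macrophages were 4.18-fold above Kupffer cells (3.76 to 4.64), a difference of 1.94 that stayed just under the threshold and passed it with a pseudocount of 0.1 and with TPM. Heart macrophages were 1.29-fold above kidney macrophages (1.21 to 1.37). Hepatocytes are known as a source of protein S, and the part of their RNA in these values was not tested. The sums of fibroblast and dendritic cell markers were highest in the heart library, as was Pros1, though not every dendritic cell marker was. The part of these cells in the Pros1 values was not tested.

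Gas6, the ligand of all TAM receptors, lies on chromosome 8, 13465374 to 13494535, and shares 1.33% of its exon bases with Tmem255b. It was the least abundant of the ligands in the heart and kidney libraries, at 5.80 RPKM in heart macrophages (5.05 to 6.63, 216 reads), 3.67 in kidney macrophages (3.10 to 4.31, 147 reads) and 1.32 in Kupffer cells (1.001 to 1.71, 57 reads). Heart macrophages were 4.39-fold above Kupffer cells (3.26 to 5.98), a difference of 1.55 that was called only with a pseudocount of 0.1 and with TPM. Kidney macrophages were 2.78-fold above Kupffer cells (2.03 to 3.84). Heart macrophages were 1.58-fold above kidney macrophages (1.28 to 1.96). Gas6 was highest in the heart library together with the fibroblast markers, and their part in this was not tested.

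Protein S transcripts outnumbered Gas6 transcripts in every library. The ratio of Pros1 to Gas6 was 7.53 in heart macrophages (6.54 to 8.71), 9.24 in kidney macrophages (7.80 to 11.0) and 6.14 in Kupffer cells (4.65 to 8.24), and all 3 intervals overlap. The ratio of Mfge8 to Gas6 spread much further, at 2.43 in heart macrophages (2.06 to 2.88), 9.18 in kidney macrophages (7.72 to 11.0) and 0.0428 in Kupffer cells (0.00506 to 0.162). Pros1 and Mfge8 stood level in kidney macrophages, with a ratio of 1.01 (0.933 to 1.09), while Pros1 exceeded Mfge8 3.10-fold in heart macrophages (2.79 to 3.44).

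**Figure D3:**
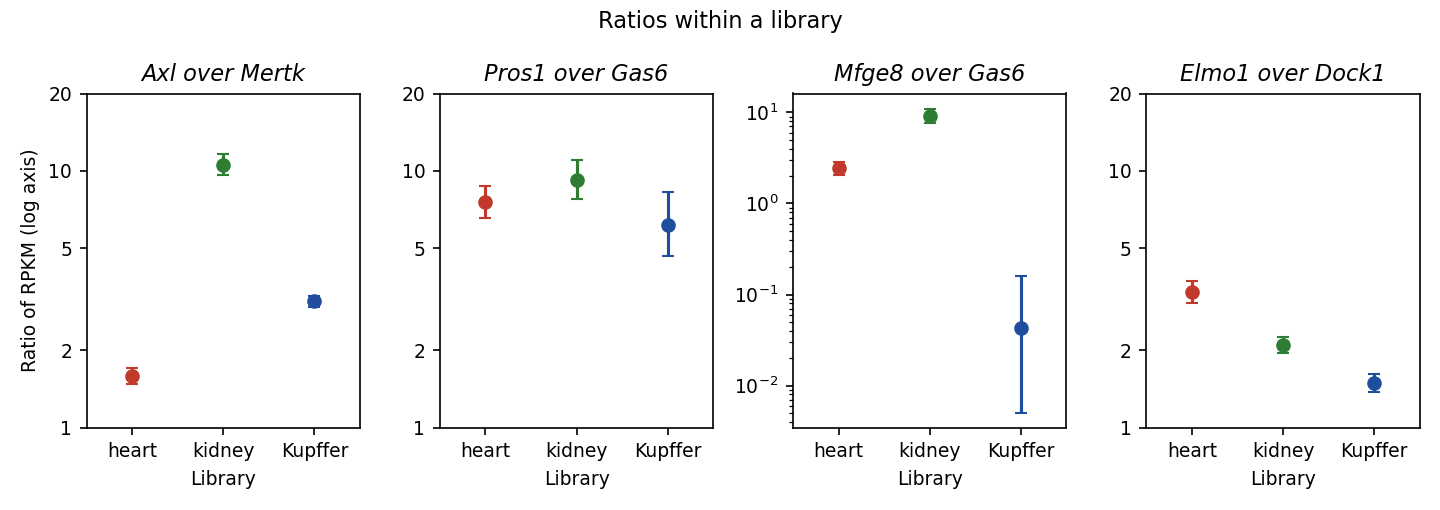
Ratio of RPKM of 2 genes within each of the 3 libraries (log axes, the third with a wider range), with exact 95% counting intervals. The ratio of Axl to Mertk is 1.59, 10.6 and 3.11 in the heart, kidney and Kupffer cell libraries, and that of Mfge8 to Gas6 is 2.43, 9.18 and 0.0428.

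Mouse Mfge8 is made as a long form, with a proline- and threonine-rich stretch, and a short form without it. The 111 bases of the exon that separates them, exon 4 of the long transcript in GENCODE M21, are shown because reads on it bear on which form was present.
Mfge8 exon 4, chr7:79143278-79143388, mm10, minus strand: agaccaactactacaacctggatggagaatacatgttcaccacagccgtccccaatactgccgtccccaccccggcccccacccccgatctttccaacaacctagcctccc
Both forms have the same start and end in the deposited table, which counts 2114 bases for the long and 2004 for the short form. The long form was given 13 reads more than the short form in heart macrophages and 25 more in kidney macrophages, over 110 further counted bases. Per base this was 56.7% of the density of the short form in the heart (30.2 to 96.9) and 42.1% in the kidney library (27.2 to 62.1). The intervals overlap, and the 2 reads in Kupffer cells allow no such value. Subtracting transcripts is not exact in this table, since the longest Axl transcript was given 2, 21 and 10 reads fewer than a form counted 26 bases shorter, in the heart, kidney and Kupffer cell library.

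Taken by the largest of the 3 differences of each gene, the engulfment genes differed least. Elmo1, the adaptor of the Rac exchange factor, lies on chromosome 13, 20090507 to 20608353, and shares 3.20% of its exon bases with Gm32036. It stood at 19.2 RPKM in heart macrophages (18.3 to 20.2), 23.7 in kidney macrophages (22.7 to 24.7) and 14.1 in Kupffer cells (13.3 to 14.9). The differences were -0.29 log2 units for heart minus kidney, 0.42 for heart minus Kupffer and 0.71 for kidney minus Kupffer. Elmo1 has a second transcript that starts 382 kb downstream. This shorter form was given 823, 828 and 679 reads in the heart, kidney and Kupffer cell library, and the long form 1544, 2046 and 1309. The forms overlap, ending at 20608356 and 20608353, so a read on a shared exon can count for both. The reads are therefore not separate amounts of the 2 forms. Reads per base of the long form exceeded those of the short form 1.38-fold, 1.82-fold and 1.42-fold. With the short form in its place, the small difference of heart minus kidney turned to 0.09.

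Dock1, the exchange factor that partners Elmo1, lies on chromosome 7, 134670687 to 135173647. It stood at 5.69 RPKM in heart macrophages (5.22 to 6.18), 11.3 in kidney macrophages (10.7 to 12.0) and 9.44 in Kupffer cells (8.89 to 10.03). Heart macrophages were lowest, 1.99-fold below kidney macrophages (1.80 to 2.20) and 1.66-fold below Kupffer cells (1.497 to 1.84). The ratio of Elmo1 to Dock1 was 3.38 in heart macrophages (3.07 to 3.73), 2.10 in kidney macrophages (1.95 to 2.25) and 1.49 in Kupffer cells (1.37 to 1.62), with no overlap of the intervals.

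Among the 8 genes compared, 1 was called apart between heart and kidney macrophages, Timd4, which was higher in the heart, where 7.5% of all genes were called, 2.4% higher and 5.1% lower. Between heart macrophages and Kupffer cells 2 were called, Pros1 and Mfge8, both higher in the heart, against 12.5% of all genes, 5.33% higher and 7.13% lower. Between kidney macrophages and Kupffer cells 2 were called, Mfge8 higher and Timd4 lower in the kidney, against 12.7% of all genes, 7.57% higher and 5.1% lower. These are 1 or 2 genes of 8, so no excess over all genes is read from them, and the comparisons share libraries. The median difference of the 8 genes was 0.03, -0.11 and 0.47 log2 units in the same order, beside -0.23, -0.16 and 0.04 over all genes. The median of all genes moved to 0.00 for heart minus Kupffer and to 0.17 for kidney minus Kupffer with TPM, and to 0.00 for heart minus kidney with median ratio scaling. With median ratio scaling, 45.2% of the genes called for heart minus kidney and 53.5% of those for heart minus Kupffer were higher in the heart, against 31.9% and 42.8% as deposited. With TPM, under which 13244 genes passed the filter, the share for heart minus Kupffer was 54.7%. Taken relative to the median of all genes, the same clearance genes were called. For none of the 8 genes did the counting intervals of any 2 libraries overlap, but the spread between animals was not measured.

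**Figure D4:**
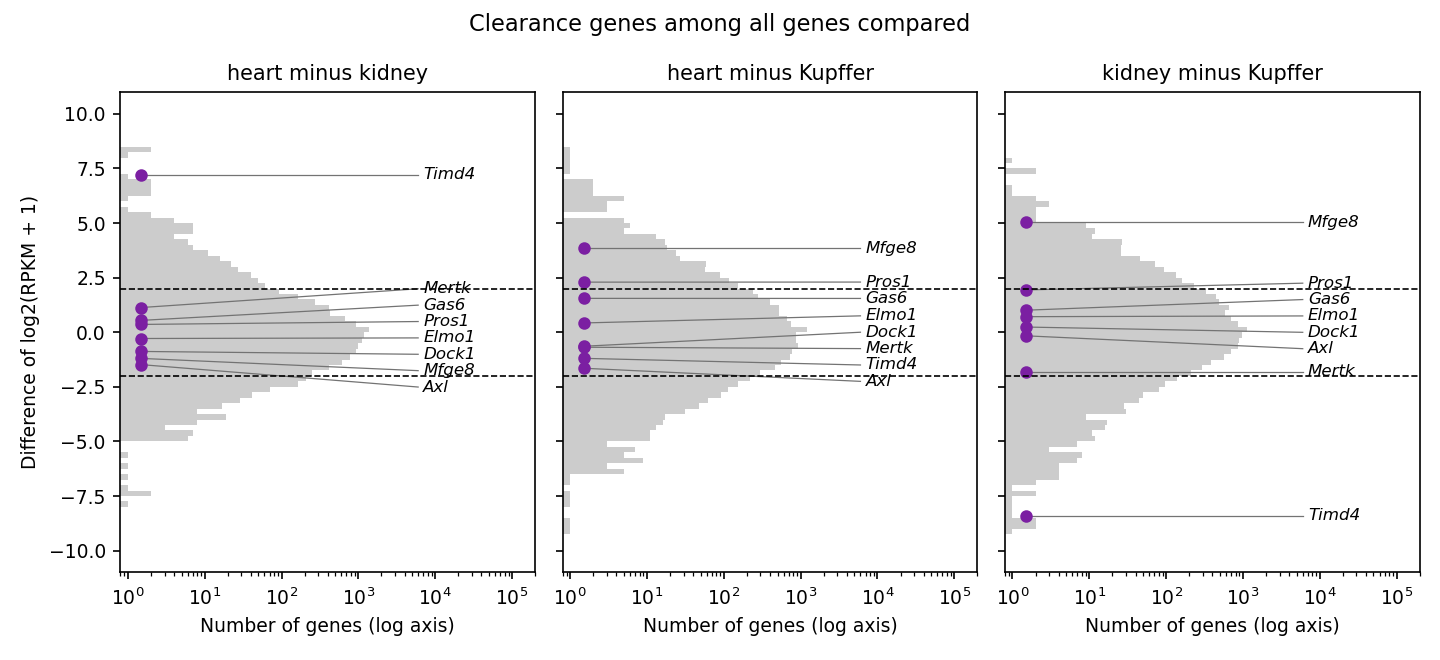
Difference of log2(RPKM + 1) for heart minus kidney, heart minus Kupffer and kidney minus Kupffer, as histograms of all 11482 genes (number of genes on a log axis). Purple points mark the height of the 8 clearance genes, their place along the axis of gene numbers has no meaning, and dashed lines mark 2 log2 units. Timd4 lies at 7.22 and -8.41 and Mfge8 at 3.84 and 5.04 in the comparisons in which they were called.

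The genes with the most similar pattern were those at the smallest distance over log2(RPKM + 1) of the 3 libraries, which with 3 points is a description only. No gene lay within 1 log2 unit of Timd4. Its nearest were Il6, which encodes interleukin 6 and stood at 297, 0 and 293 RPKM in the heart, kidney and Kupffer cell library (distance 1.02), Ccl24, a chemokine for eosinophils (1.15), and Vsig4, a complement receptor (1.86). Mfge8 had 8 genes within 1 log2 unit, the nearest being Mir1903, a microRNA gene (0.61), Emb (0.76) and Ank (0.88). The other 6 genes had between 106 and 677 neighbors within 1 log2 unit. The nearest were Fer, Bag1 and Rap2b for Mertk, Ifit2, Nfu1 and Pla2g15 for Axl, and Dclre1c, Pmpcb and Myd88 for Pros1. For Gas6 they were Atg4c, Pogk and Dyrk1a, for Elmo1 Arsk, Cpsf7 and Vps4b, and for Dock1 Gatb, Eif1ad and Lasp1.

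A further 125 genes of apoptotic cell clearance were listed by role, and 104 of them passed the filter. For heart minus kidney 8 were higher and 2 lower, 9.62% of the 104 against 7.5% of all genes. For heart minus Kupffer 9 were higher and 9 lower, 17.3% against 12.5%. For kidney minus Kupffer 3 were higher and 8 lower, 10.6% against 12.7%. Their medians were -0.07, -0.17 and -0.05 log2 units, again beside -0.23, -0.16 and 0.04 over all genes. Among all genes, 2.4% were called higher and 5.1% lower for heart minus kidney. The shares were 5.33% and 7.13% for heart minus Kupffer and 7.57% and 5.1% for kidney minus Kupffer. Single lists, counted below, hold few genes, and no excess over these shares is read from their counts.

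Of 19 other clearance receptors compared, 0 were higher and 1 lower for heart minus kidney, 1 higher and 4 lower for heart minus Kupffer, and 0 higher and 2 lower for kidney minus Kupffer. Stab2, a phosphatidylserine receptor of sinusoidal endothelium, had 0 reads in heart and kidney macrophages and 57.5 RPKM in Kupffer cells. The 8 liver sinusoidal endothelial markers, Stab2 among them, summed to 696, 407 and 406 RPKM in the heart, kidney and Kupffer cell library, with 3, 5 and 0 genes at 0 reads. The most abundant of them was Lyve1 in the heart (336 RPKM), Fcgr2b in the kidney (308 RPKM) and Clec4g in the Kupffer cell library (129 RPKM). Like Stab2, Clec4g (1.24, 0 and 129 RPKM), Oit3 (0, 0 and 15.4) and Gpr182 (0, 0 and 3.89) were highest in the Kupffer cell library. Lyve1, Fcgr2b and Bmp2 were highest in the heart library. Dnase1l3 was near level in the kidney and Kupffer cell libraries, at 91.6 and 91.4 RPKM. The part of sinusoidal endothelial RNA in the Stab2 value was not tested. Scarb1, a scavenger receptor, stood at 1.63, 19.9 and 33.1 RPKM in heart macrophages, kidney macrophages and Kupffer cells. Cd300lf, a lipid-binding receptor, stood at 18.6, 20.6 and 94.8 RPKM. Havcr2, which encodes TIM-3 of the same family as TIM-4, ran the other way, at 70.6, 53.6 and 14.4 RPKM. The other TIM genes of the list, Havcr1 and Timd2, had 0 reads in all 3 libraries. The integrin chains through which MFG-E8 acts were not called, with Itgav at 11.6, 15.6 and 19.3 RPKM and Itgb5 at 8.85, 32.1 and 30.3 RPKM. Itgb3 stayed under 1 RPKM, at 0.480, 0 and 0.124.

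Of 13 other bridges and opsonins compared, 3 were higher and 0 lower for heart minus kidney, 3 higher and 1 lower for heart minus Kupffer, and 1 higher and 1 lower for kidney minus Kupffer. Anxa1, which encodes the phosphatidylserine-binding annexin A1, stood at 365 RPKM in heart macrophages, 43.2 in kidney macrophages and 6.58 in Kupffer cells. Heart macrophages were 8.43-fold above kidney macrophages (7.88 to 9.04) and 55.4-fold above Kupffer cells (47.2 to 65.5). Thbs1, which encodes thrombospondin 1, stood at 18.4, 2.77 and 0.072 RPKM, and Edil3, a relative of Mfge8, at 7.26, 0 and 0 RPKM. Fibroblast and mural cell markers were highest in the same heart library, and their part in these 3 genes was not tested. C4b, a complement component, stood at 1.36, 0.649 and 30.4 RPKM and was the one opsonin called higher in Kupffer cells. Hepatocyte markers were highest in the same library, and their part in the C4b value was not tested. The C1q genes, whose protein also bridges apoptotic cells, were not called, with C1qa at 67.9, 164 and 195 RPKM.

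Genes that sense or silence clearance signals included 9 that were compared. Of these 1 was higher for heart minus kidney, 2 higher and 1 lower for heart minus Kupffer, and 1 higher for kidney minus Kupffer. S1pr1, a receptor of the lipid signal sphingosine 1-phosphate, stood at 52.3, 8.14 and 3.44 RPKM in heart macrophages, kidney macrophages and Kupffer cells. P2ry6, a receptor for uridine nucleotides, stood at 51.3, 166 and 13.8 RPKM and was 12.0-fold higher in kidney macrophages than in Kupffer cells (10.9 to 13.3). Gpr132 stood at 27.6, 13.7 and 3.93 RPKM. Pecam1, also an endothelial marker, stood at 3.15, 7.89 and 25.8 RPKM. Cd47, the signal that restrains uptake, and its receptor gene Sirpa were not called, at 55.6, 50.1 and 59.3 RPKM and 46.8, 82.9 and 77.9 RPKM.

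**Figure D5:**
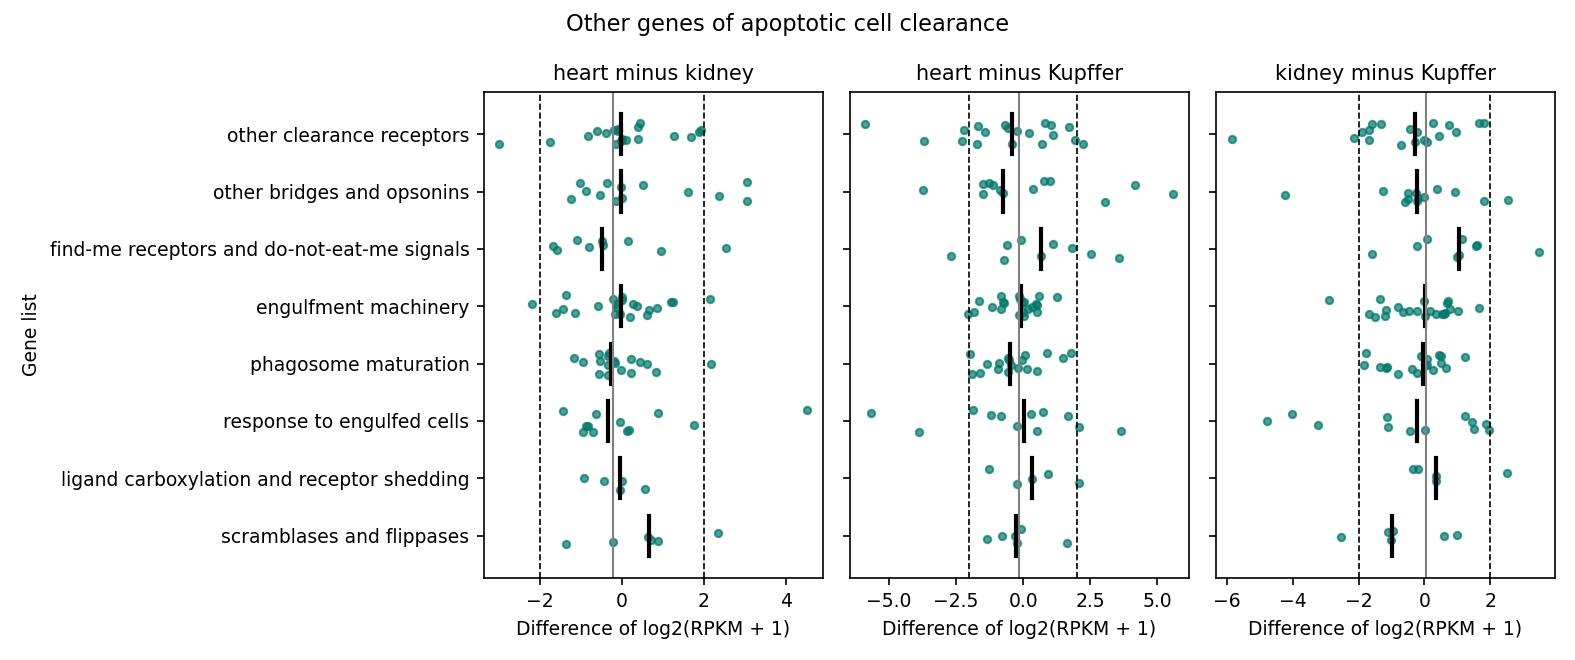
Difference of log2(RPKM + 1) for each gene of 8 lists of clearance genes in the 3 comparisons. Points are genes, black bars the median of a list, the gray line the median of all genes, and dashed lines mark 2 log2 units. The response list holds Il10 at 4.52 for heart minus kidney and Nr1h3 at -5.66 for heart minus Kupffer.

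Of 22 engulfment genes compared, 1 was higher and 1 lower for heart minus kidney, and 1 was lower for each of heart minus Kupffer and kidney minus Kupffer. Elmo2, a relative of Elmo1, stood at 5.54, 28.8 and 22.3 RPKM in heart macrophages, kidney macrophages and Kupffer cells, so the heart library was low for it as it was for Dock1. Dock2, the relative of Dock1 found in blood cells, was more abundant than Dock1 in every library, at 52.4, 60.9 and 41.7 RPKM. Ptk2, a focal adhesion kinase, stood at 0.805, 0 and 6.56 RPKM, and Abca1, a cholesterol exporter, at 40.5, 8.32 and 28.8 RPKM. Of 18 phagosome maturation genes, Uvrag alone was called, at 13.8 RPKM in heart macrophages against 2.29 in kidney macrophages, with 3.28 in Kupffer cells. It shares 17.6% of its exon bases with other genes.

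The response to engulfed cells had 12 genes compared. In this list 1 was higher for heart minus kidney, 2 higher and 2 lower for heart minus Kupffer, and 3 lower for kidney minus Kupffer. Nr1h3, the lipid sensor LXRα and also on the Kupffer cell marker list, stood at 1.07, 2.78 and 104 RPKM, and its partner Rxra at 0.605, 1.49 and 22.3 RPKM. Il10, an anti-inflammatory cytokine, stood at 273 RPKM in heart macrophages, 10.9 in kidney macrophages and 193 in Kupffer cells, so the kidney library was low for it as it was for Timd4. Socs3, a suppressor of cytokine signaling, stood at 37.5, 10.3 and 2.09 RPKM.

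Genes that modify the TAM ligands and receptors numbered 5. Vkorc1, which recycles vitamin K for the carboxylation of Gas6 and protein S, stood at 87.9, 118 and 19.9 RPKM in heart macrophages, kidney macrophages and Kupffer cells. It was called higher in both heart and kidney macrophages than in Kupffer cells, 4.43-fold (3.84 to 5.11) and 5.97-fold (5.21 to 6.86). Vkorc1 shares 47.7% of its exon bases with other genes on a count without strand, so its level is uncertain. Ggcx, the carboxylase itself, stood at 12.9, 8.38 and 6.30 RPKM and was not called. Adam17 and Adam10, proteases that shed Mertk and Axl, were not called either, at 37.6, 38.7 and 44.3 RPKM and at 24.3, 47.4 and 60.2 RPKM.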

How the data were processed

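RNA of sorted macrophages was amplified with a kit for low input and sequenced, per the labels' protocols. The submitters' processing notes name CASAVA, STAR and mm10. The versions were not given in the sources used here. Per the file headers the authors computed RPKM with HOMER's analyzeRepeats.pl counting exon reads of both strands, scaled each library to 1000000 and set a limit of 3 tags at a position. Genes on opposite strands therefore cannot be told apart where they overlap, and overlap was measured in GENCODE M21. The column names say FPKM. RPKM times exon length was a whole number of reads, within 0.1, for 99.97% of low values (up to 500 reads) in the heart, 99.95% in the kidney and 99.88% in the Kupffer cell library. No count test was run, as there are no replicates.

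For each of 24453 symbols the longest coding transcript was kept, or the longest noncoding one where there was no coding transcript. Differences used log2(RPKM + 1) for genes that reached 1 RPKM in some library. With 1 library per tissue there is no test. Intervals of RPKM are exact Poisson intervals, and those of ratios exact Clopper-Pearson intervals of the share of reads. The steps were tested on simulated data. The genes, lists, and motifs were chosen with earlier results of these data known. Beside the 9 genes, the text names up to 4 called genes per list with the largest differences, the 3 nearest in pattern to each gene, and the most abundant marker of a cell type list. A gene that this rule names is not reported here. Other genes of these lists were named for their role after their values were seen. Python 3.11.15, pandas 2.3.3, numpy 2.4.6, scipy 1.17.1 and matplotlib 3.10.9 were used.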

Additional observations from a re-analysis of the deposited data

How the results depend on the processing

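Results were recomputed with pseudocounts of 0.1 and 5, TPM over genes, median ratio scaling, the shortest coding transcript, the mean of coding transcripts, no filter on low values, and only genes of at most 2 reads per base. The count of clearance genes called apart changed by over 1.5 times in 3 cases. Without genes of over 2 reads per base, which takes out Timd4, it was 0 for heart minus kidney, against 1, and 1 for kidney minus Kupffer, against 2. With a pseudocount of 5, which shrinks low values, it was 0 for heart minus Kupffer, against 2. Over all genes, 861, 1431 and 1455 were called for heart minus kidney, heart minus Kupffer and kidney minus Kupffer, against 2350, 3268 and 3178 with a pseudocount of 0.1, 213, 465 and 391 with 5, and 1978, 2797 and 2918 with TPM. With TPM 13244 genes passed the filter, against 11482 in the main setting, so those counts are not on the same set of genes. Of 165 recomputed differences of single genes, 49 lay outside the counting interval, 1 changed its sign (Elmo1 for heart minus kidney, 0.09 with the shortest transcript) and 0 of the called ones reversed. No paired analysis was possible because each tissue has 1 library. With no second library of a tissue, leaving out replicates was not possible either.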
